A study of Ovis aries with 2 samples.

Results

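The 10 genes described here are IFI6, BST-2A, ISG15, MX1, MX2, IFIT2, IFIT3, IFI44, IFI44L and RSAD2, taken by name as rows of a single-cell RNA-seq table of 18161 genes in lamb skin. All 10 were rows of the table. They were selected on their measured UMI levels in this same table, where an earlier look had shown interferon genes to be higher in curly wool skin. Their difference between the wool types is therefore a description and supports nothing. Skin from the body side of Hu sheep lambs aged 3 days was taken from straight wool lambs and from curly wool lambs, which the labels call waved. The lambs of each wool type were pooled into 1 library, so that no cell can be assigned to a lamb and no spread between lambs exists. All intervals below are 95% intervals that cover counting error only, and no test between the wool types was possible. Each pool combined cells freed from dissected follicles with cells freed from intact skin, and the shares of these sources are not given in the sources used here.

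Interferons are secreted proteins that cells release when they sense foreign nucleic acid. Type I interferons bind a receptor made of IFNAR1 and IFNAR2, the kinases JAK1 and TYK2 then pass the signal on, and a complex that holds IRF9 enters the nucleus and switches on a large set of antiviral genes. The genes described here belong to that set. IFI6 is a small membrane protein that restrains some RNA viruses and protects cells from death, and BST-2A is 1 of the sheep forms of tetherin, which holds budding virus at the cell surface. ISG15 is a ubiquitin-like protein that is joined to other proteins, MX1 and MX2 are GTPases that block viral ribonucleoproteins, IFIT2 and IFIT3 bind foreign RNA and its sensors, RSAD2 is viperin, which makes a nucleotide that stops viral polymerases, and IFI44 and IFI44L are less well understood. Skin fibroblasts, endothelial cells and keratinocytes can all express such genes.

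A UMI marks 1 captured RNA molecule. There were 57956120 UMIs in 6452 straight cells. The 7585 curly cells had 77634560. The median cell had 7373.5 UMIs in straight and 7495 in curly skin. There were 70 cell barcodes that occurred in both libraries, and without them the log2 ratios of the 9 genes with UMIs in both libraries stayed within their intervals. Cells were grouped into 24 clusters without the 10 genes and the 74 wider interferon genes described below among the variable genes. Interferon genes outside these lists could still be used. A cluster was called after a cell type, with the ending "-like", only where its markers passed fixed limits. The others are called by leading genes. Levels are UMIs of a gene per 1000000 UMIs of the same cells (CPM). The mast cell markers KIT, CPA3, MS4A2 and FCER1A were present in the TPSB2-rich immune-like cluster. The 4 T cell markers had few UMIs, with CD3E and CD3D at 0 in both immune-like clusters. CD3G was at 1 UMI in TPSB2-rich curly cells and CD2 at 5 straight and 4 curly UMIs in the CD74-rich cells. Of the myeloid markers, C1QA was at 1430 straight and 664 curly CPM in the CD74-rich cells. CSF1R was there at 264 and 211 CPM and CD68 at 208 and 166 CPM, and CD14 had 5 and 2 UMIs. Ratios are curly over straight. Their median on the log2 scale, over all genes with at least 100 UMIs, was -0.18, and taking ratios relative to it changed no direction among the 9 genes with UMIs in both libraries.

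IFI6 was at 73.5 CPM (71.3 to 75.7) in straight and at 4115 CPM (4101 to 4129) in curly skin, a 56.0-fold ratio. At least 1 IFI6 UMI was found in 18.9% of straight and 91.1% of curly cells. The ratio ranked 25th from the top of 13196 genes.

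BST-2A had 9 UMIs in the straight library and 5145 in the curly library, a 427-fold ratio with a log2 interval of 7.81 to 9.87. MX2 had 4 and 1032 UMIs, with a log2 ratio of 7.59 (6.23 to 9.47). Both genes were thus close to the detection limit in straight skin. BST-2A and BST-2B, and MX1 and MX2, are related genes whose reads may have been split between them.

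ISG15 had 17.4 CPM in straight skin against 189 CPM in curly skin, with a log2 ratio of 3.45 (3.35 to 3.54). MX1 had nearly the same log2 ratio, 3.44 (3.29 to 3.60), from 6.42 to 69.7 CPM. The ratios of ISG15 and MX1 could not be told apart, as their intervals overlapped.

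IFIT2 had 186 straight and 1431 curly UMIs, a log2 ratio of 2.52. For IFIT3 the log2 ratio was 2.48 (2.26 to 2.70). IFI44L had 18 and 99 UMIs and a log2 ratio of 2.04 (1.30 to 2.85). IFI44 had only 12 UMIs in straight and 62 in curly cells. RSAD2 had 0 UMIs in straight and 23 in curly skin, which is at least 5.72-fold higher when the straight library is set at 3 counts.

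Of the 10 genes, 8 had at least 100 UMIs, and all 8 were at least 1.5-fold higher in curly cells, where 6.22% of the genes tested were. None of the 8 was at least 1.5-fold lower, while 16.9% of the genes tested were. Since the genes were selected for this difference, nothing is read from these counts.

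The level of IFI6 differed widely between cell types within the curly library. It was highest in the fibroblast/DPC-like cluster, at 16360 CPM, and next in the LGR5-rich HFSC-like cluster, which carries markers of hair follicle stem cells, at 14749 CPM. The DPC-like cluster, with markers of the dermal papilla that instructs the follicle, was at 14113 CPM. Dermal and stem-like epithelial cells thus stood side by side at the top of the order.

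The PTHLH- and SFTPC-rich keratinocytes were at 12500.1 CPM, the DES-rich contractile-like cells at 11954 CPM and the DLK2- and POSTN-rich keratinocytes at 11532 CPM. Endothelial-like cells, at 11212 CPM, and PDPN-rich HFSC-like cells, at 11126 CPM, had overlapping intervals and do not differ beyond counting error. The ACTG2-rich contractile-like cells followed at 9452 CPM, the cycling-like cells at 7278 CPM and the TFPI2- and HCAR2-rich cells at 6973 CPM.

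In the middle of the order, the luminal gland/ORS-like cells at 5194 CPM and the suprabasal IFE-like cells at 5115 CPM had overlapping intervals. The TPSB2-rich immune-like cells at 3652 CPM, the KRT79- and CST6-rich cells at 3646 CPM and the CD74-rich immune-like cells at 3396 CPM also overlapped. In the last of these, 216 of the 532 IFI6 UMIs came from a single cell.

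The cells that build the wool fibre and its sheath were near the bottom. IFI6 was at 439 CPM in matrix-like cells, the dividing cells at the base of the follicle, and at 222 CPM in the IRS-like cells of the inner root sheath. Hair shaft-like cells were at 214 CPM, and the interval of 203 to 225 overlapped that of the IRS-like cells. Of 23 clusters with at least 25 curly cells, 17 had at least 1000 CPM of IFI6. The 6 others were the matrix-like, IRS-like, hair shaft-like and luminal gland-like cells, the KLK6- and CDSN-rich cells and a shallow cluster rich in LOC114117888.

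**Figure D1:**
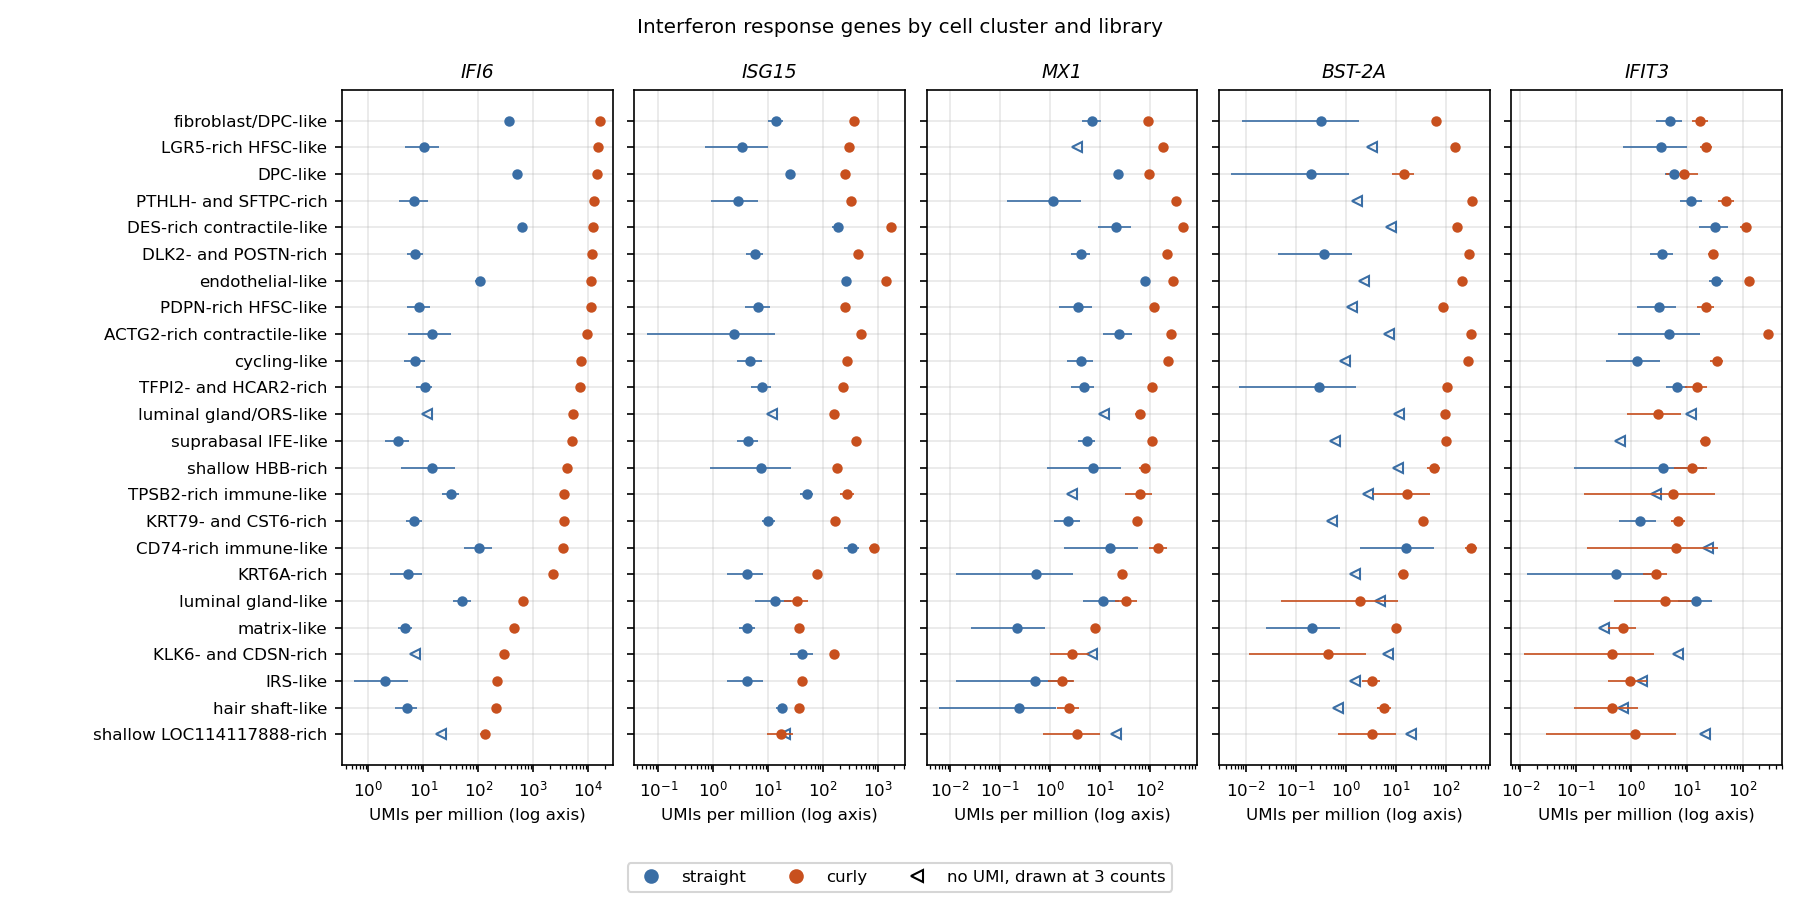
Level in CPM on a log axis for IFI6, ISG15, MX1, BST-2A and IFIT3 in each of 24 cell clusters, for the straight (blue) and curly (orange) library. Bars are exact 95% Poisson intervals, and open triangles mark clusters without a UMI, drawn at 3 counts. Clusters are ordered by the curly IFI6 level, from 16360 CPM at the top to 129.7 CPM at the bottom.

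Straight skin had another order. IFI6 was highest in the DES-rich contractile-like cells, which carry the pericyte marker RGS5, at 629 CPM (552 to 714). DPC-like cells followed at 495 CPM (475 to 515) and fibroblast/DPC-like cells at 361 CPM (340 to 383). The dermal clusters together held most straight IFI6, since 56.8% of its UMIs came from DPC-like and 25.8% from fibroblast/DPC-like cells, which gave 8.44% and 5.26% of all UMIs.

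Endothelial-like cells were at 105 CPM of IFI6 in straight skin. Keratinocytes were far lower, as the LGR5-rich HFSC-like cells had 10.2 CPM, the DLK2- and POSTN-rich cells 7.06 CPM and the suprabasal IFE-like cells 3.48 CPM. In the luminal gland-like cells, 24 of the 31 straight IFI6 UMIs came from a single cell.

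IFI6 ratios differed between clusters. The ratio was 28.5-fold in DPC-like and 45.3-fold in fibroblast/DPC-like cells, and the log2 ratio of the DES-rich contractile-like cells was 4.25. The lowest log2 ratio, 3.65, was that of the luminal gland-like cells, whose straight level rested on that single cell. In keratinocytes the log2 ratio was 10.84 in the PTHLH- and SFTPC-rich, 10.67 in the DLK2- and POSTN-rich, 10.50 in the LGR5-rich HFSC-like and 10.52 in the suprabasal IFE-like cells, whose straight levels rested on 9 to 38 UMIs. Other cells of the follicle had lower log2 ratios, 5.43 in hair shaft-like, 6.55 in matrix-like and 6.77 in IRS-like cells. In the KLK6- and CDSN-rich cells, with 0 straight UMIs, the fold was at least 42.0 against 3 counts.

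ISG15 had another order. In curly skin it was at 1763 CPM in the DES-rich contractile-like cells and at 1424 CPM in endothelial-like cells. All other clusters of at least 25 curly cells were at 484 CPM or less. The 20 curly CD74-rich immune-like cells, below that limit, held 0.893% of the curly ISG15 UMIs with 0.202% of all UMIs. For curly endothelial-like cells these shares were 8.39% and 1.11%. The 18 straight CD74-rich immune-like cells had 335 CPM, with 27 of their 42 ISG15 UMIs from a single cell. In straight skin ISG15 was at 186 CPM in the DES-rich contractile-like and at 259 CPM in the endothelial-like cells, which held 33.6% of the straight ISG15 UMIs with 2.25% of all UMIs.

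The lowest log2 ratio of ISG15 was 1.01 in hair shaft-like cells. There the straight level of 17.9 CPM rested on 76 UMIs, 19 of them from a single cell. The highest was 7.65 in the ACTG2-rich contractile-like cells, which had 1 straight ISG15 UMI and an interval of 5.17 to 12.96. In endothelial-like cells it was 2.46.

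MX1 was highest in curly skin in the DES-rich contractile-like cells at 447 CPM, followed by the PTHLH- and SFTPC-rich cells at 335 CPM and the endothelial-like cells at 293 CPM. In straight skin it was highest in the endothelial-like cells, at 79.6 CPM. DPC-like cells gave 30.1% and endothelial-like cells 28.0% of the straight MX1 UMIs. In clusters of at least 25 curly cells, BST-2A reached 329 CPM in the PTHLH- and SFTPC-rich cells. It was at 315 CPM in the ACTG2-rich contractile-like and at 291 CPM in the DLK2- and POSTN-rich cells. The 20 curly CD74-rich immune-like cells had 95.9 BST-2A UMIs per 1000 of IFI6, against 26.3 in the PTHLH- and SFTPC-rich cells. In DPC-like cells, among the highest for IFI6, BST-2A was at only 14.7 CPM.

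The IFIT genes had a pattern of their own. In curly skin IFIT2 was at 299 CPM and IFIT3 at 284 CPM in the ACTG2-rich contractile-like cells. The next levels were 138 CPM of IFIT2 in the DES-rich contractile-like cells, where 37 of the 94 UMIs came from a single cell, and 132 CPM of IFIT3 in endothelial-like cells. In DPC-like cells IFIT2 had 3 straight and 1 curly UMI, and IFIT3 had 29 and 10, with a log2 ratio of 0.55 (-0.65 to 1.63), an interval that covers 0. The ACTG2-rich cells had a log2 ratio of 4.37 (3.24 to 5.82) for IFIT2 and 5.89 (4.03 to 8.94) for IFIT3. In endothelial-like cells these were 1.80 (1.29 to 2.34) and 1.97 (1.46 to 2.51).

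IFI44 and IFI44L had few UMIs. In endothelial-like cells their curly levels were 41.7 and 42.8 CPM, from 36 and 37 UMIs, and their straight levels 7.66 and 9.19 CPM, from 10 and 12 UMIs. Outside the endothelial-like and CD74-rich immune-like cells, the highest level in the clusters with at least 25 curly cells was 7.33 CPM, that of IFI44L in DES-rich contractile-like cells, from 5 UMIs. MX2 was at 78.7 CPM in endothelial-like curly cells and at 76.1 CPM in the PTHLH- and SFTPC-rich cells.

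In 22 clusters with at least 25 cells in each library, 83 combinations of a gene and a cluster had at least 100 UMIs, and each was at least 1.5-fold higher in curly cells. A combination could reach 100 UMIs through the curly cells alone, so this count is not evidence on the genes. In the matrix-like cells 4 of the 10 genes had 100 UMIs and 4 were called, against 4.18% of all genes there. The counts were 2 of 2 in hair shaft-like cells, where 6.87% of all genes were called, and 2 of 2 in IRS-like cells, where 3.75% were. They were 5 of 5 in LGR5-rich HFSC-like cells (4.74% of all genes), 5 of 5 in suprabasal IFE-like cells (9.19%) and 3 of 3 in DPC-like cells (8.62%). They were 6 of 6 in endothelial-like cells (10.9%) and 2 of 2 in TPSB2-rich immune-like cells (9.81%).

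**Figure D2:**
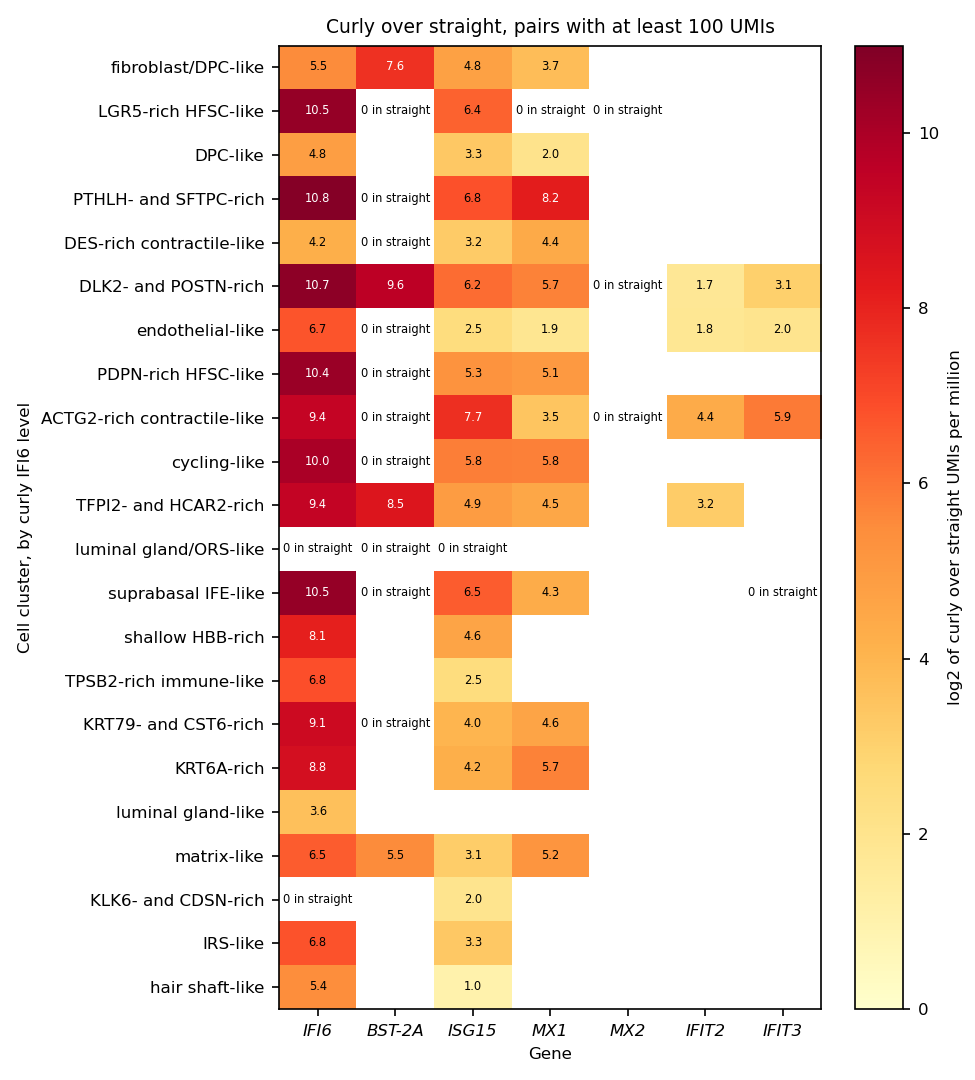
Log2 of the curly over straight level for 7 interferon response genes in 22 clusters, for the combinations with at least 100 UMIs. Combinations without a straight UMI are marked as such, blank fields had fewer UMIs, and the values of IFI6 with UMIs in both libraries run from 3.65 to 10.84.

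In droplet data, RNA from broken cells can give UMIs to cells that do not make it, and no skin cell type is known to lack these genes. KRT25 and KRT27, keratins of the inner root sheath, served as gauges. KRT25 was at 11556 CPM in IRS-like and at 274 CPM in endothelial-like curly cells, against 8851 and 106 CPM in straight skin. In the hair shaft-like curly cells IFI6 was at 214 CPM, KRT25 at 253 CPM and KRT27 at 74.9 CPM. In matrix-like curly cells IFI6 was at 439 CPM, KRT25 at 497 CPM and KRT27 at 41.6 CPM, and KRT25 was also at 486 CPM in straight matrix-like cells. The mix of the genes differed between clusters, as ISG15 had 18.1 UMIs per 1000 of IFI6 in DPC-like, 147 in DES-rich contractile-like and 556 in KLK6- and CDSN-rich curly cells. It had 169 in hair shaft-like and 186 in IRS-like cells, against 45.9 over the whole curly library. The mix of the genes in free RNA was not measured, and its part in these clusters was not tested.

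Single cells were compared after each was thinned to 2000 UMIs, which left 5415 straight and 6052 curly cells and removed 1037 and 1533 shallower ones. IFI6 was found in all of the 462 curly LGR5-rich HFSC-like cells, with a median of 29 UMIs and 10 at the 5th percentile. The 424 fibroblast/DPC-like cells had a median of 31 UMIs, and likewise none was without IFI6. In both clusters IFI6 was thus spread over the cells and not held by a few of them.

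In matrix-like and hair shaft-like cells the IFI6 share lay between those of KRT25 and KRT27, which by itself does not measure free RNA. IFI6 was found in 42.5% of 1030 thinned curly matrix-like cells, against 43.9% with KRT25 and 8.74% with KRT27 in the same cells. In hair shaft-like cells the shares were 27.3% for IFI6, 29.3% for KRT25 and 10.1% for KRT27. IFI6 was found in 26.6% of IRS-like cells, which make both keratins. In straight skin KRT25 was found in 41.0% of thinned matrix-like cells, against 19.5% of all thinned cells. It could therefore not serve as a gauge of free RNA alone in matrix-like cells. Over the curly library IFI6 was at 4115, KRT25 at 1388 and KRT27 at 378 CPM, so the shares are not on one scale. The part of free RNA in these shares was not tested. Before thinning, 88.5% of the matrix-like, 82.6% of the IRS-like and 75.7% of the hair shaft-like curly cells had an IFI6 UMI. The 76 luminal gland-like cells had a median of 0 and a 95th percentile of 14 UMIs, against 4 in matrix-like cells.

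In straight skin the dermal clusters stood above both gauges. IFI6 was found in 48.1% of 592 thinned DPC-like cells, where KRT25 was found in 15.2% and KRT27 in 2.87%. In the 600 fibroblast/DPC-like cells these 3 shares were 43.3%, 17.8% and 5.83%, and in the 75 DES-rich contractile-like cells 41.3%, 18.7% and 5.33%. In straight endothelial-like cells they were 14.5%, 11.5% and 2.29%.

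**Figure D3:**
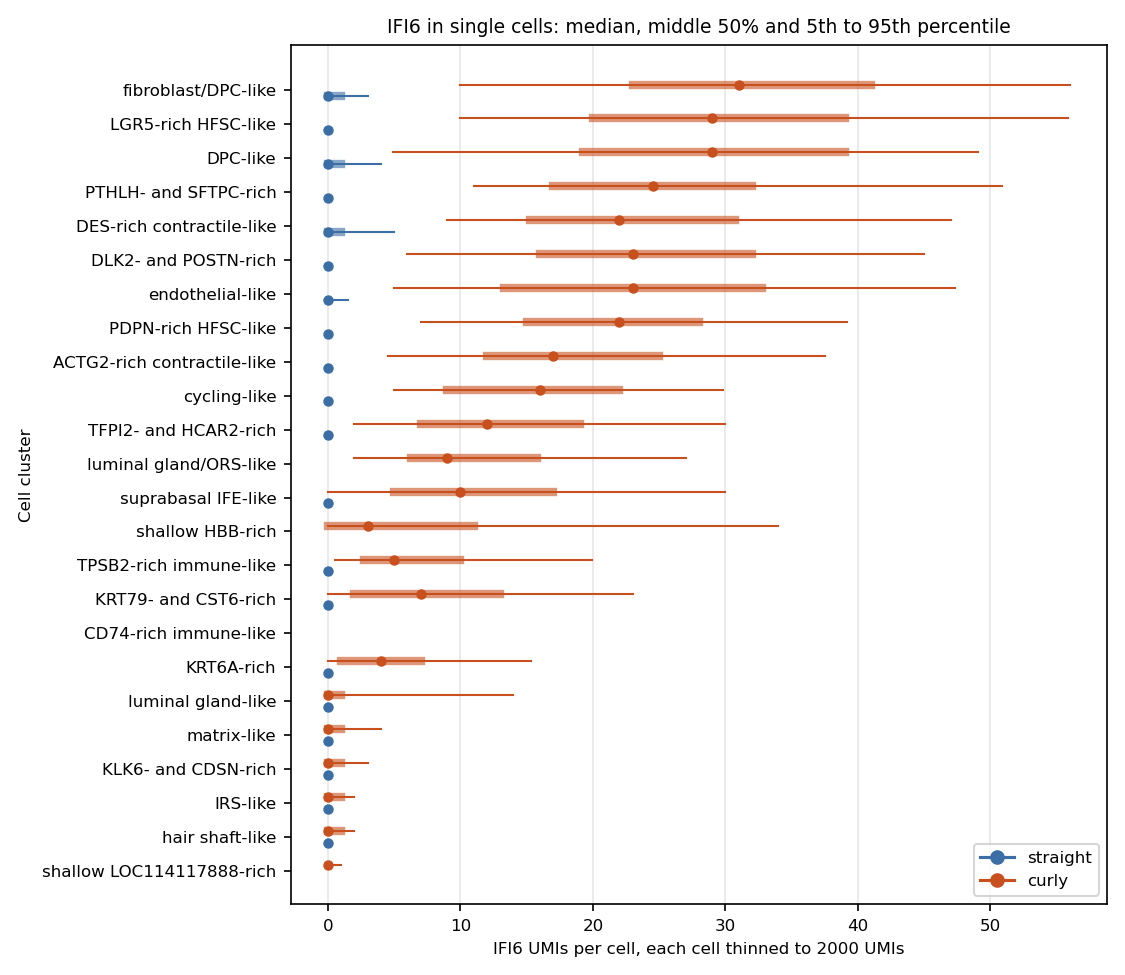
IFI6 UMIs per cell after thinning to 2000 UMIs, by cluster and library. Points are medians, thick bars the middle 50% and thin bars the 5th to 95th percentile of clusters with at least 25 such cells. The curly median was 31 in fibroblast/DPC-like cells and 0 in matrix-like cells.

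The other genes were found in fewer cells, and they tended to occur in the same ones. Among thinned curly cells, 58.5% of the 744 cells with MX1 also had ISG15 (54.8 to 62.0), against 19.4% of those without MX1 (18.3 to 20.5). Since levels differ between clusters, it was also counted within each of them.

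In the LGR5-rich HFSC-like cells, ISG15 was found in 57.1% of 105 cells with MX1 and in 18.5% of the others. In the DLK2- and POSTN-rich cells these shares were 67.2% and 26.8%, and in the suprabasal IFE-like cells 68.1% and 30.9%. For 13 clusters with at least 20 cells of each kind, the share was higher in cells with MX1 in all 13, and the intervals were apart in 7.

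The difference in percentage points was smallest in contractile cells. In the ACTG2-rich contractile-like cells ISG15 was found in 49.3% of cells with MX1 and in 44.4% of the others, with overlapping intervals. In the DES-rich contractile-like cells the shares were 83.3% and 74.4%, and in endothelial-like cells 91.3% and 76.5%. The Pearson r of the DES-rich cells, 0.44, was near the median of 0.42 over the 13 clusters, and that of the ACTG2-rich cells, 0.29, was the lowest.

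**Figure D4:**
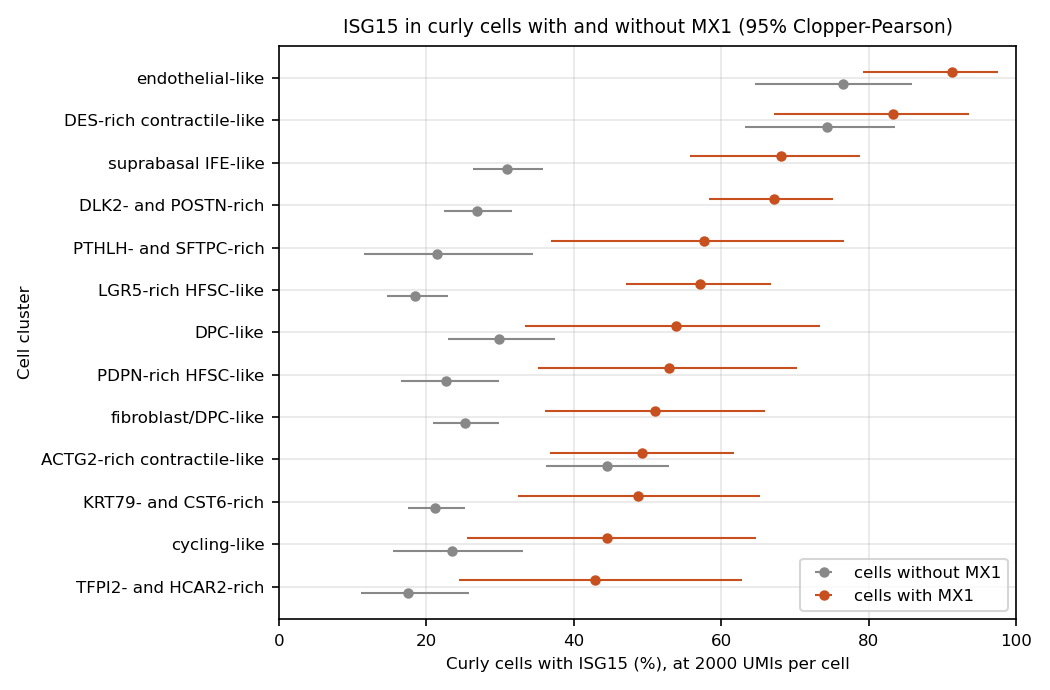
Percentage of curly cells with an ISG15 UMI among cells with (orange) and without (grey) an MX1 UMI, at 2000 UMIs per cell, in 13 clusters, with exact Clopper-Pearson 95% intervals. The share with MX1 lies to the right in each cluster, from a difference of 4.81 to 40.4 percentage points.

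Across the 6052 thinned curly cells, with each cell's values taken relative to its cluster, the Pearson r of ISG15 with MX1 was 0.41, of BST-2A with MX1 0.34 and of MX1 with MX2 0.31. Of 21 gene pairs among IFI6, BST-2A, ISG15, MX1, MX2, IFIT2 and IFIT3, 18 had an r of at least 0.1. IFI6 had low r, between 0.04 and 0.17 to the other 6 genes, and all pairs below 0.1 held it. IFIT2 was also low, with r between 0.04 and 0.19. These cells share 1 library and 1 depth, and r values this low in sparse counts are no finding by themselves.

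In the 5415 thinned straight cells, 1 of the 21 pairs had an r of at least 0.1, namely ISG15 with MX1 at 0.11. Few straight cells could inform this, since 62 had an MX1 UMI and 12 of those also had ISG15. Of 22 thinned straight DPC-like cells with MX1, 22.7% had ISG15 (7.82 to 45.4), against 1.58% of the others. Unthinned, 69 straight cells had both genes, of which 37 were endothelial-like and 16 DPC-like.

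The number of different genes per cell set vascular and contractile cells apart. At least 3 of the 10 genes were found in 62.3% of 114 thinned endothelial-like, 57.3% of 211 ACTG2-rich contractile-like and 41.2% of 114 DES-rich contractile-like curly cells. The nearest other shares were 28.4% in the DLK2- and POSTN-rich and 25.6% in the PTHLH- and SFTPC-rich cells. In the LGR5-rich HFSC-like cells the share was 21.4%, in DPC-like cells 8.95% and in matrix-like cells 0.777%. Over all thinned cells it was 0.129% in straight and 12.8% in curly skin.

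Genes were ranked by the likeness of their pattern across the 22 clusters to the mean of the 10, taking the lower Pearson r of the libraries. CMPK2, a mitochondrial nucleotide kinase, was first at 0.92, followed by LOC105602911 at 0.87, IFIT1 at 0.87, RNF213 at 0.87, XAF1 at 0.83 and LOC101109915 at 0.83. IRF9, the DNA-binding part of the complex that carries the type I signal, was at 0.80, and LOC114108712, LAYN and FAM13C followed at 0.79, 0.79 and 0.78. Across thinned cells the same measure was low, from 0.16 for LOC114108712 and 0.13 for IFIT1 to 0.06 for LOC114114483. The others of these 10 were LOC101112936, LOC105602911, CMPK2, LOC101117112, BST-2B, HERC6 and LOC101120367, between 0.07 and 0.09. Of the genes named here, 4 across clusters and 4 across cells were on the list of wider interferon genes below.

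The wider interferon pathway was described by 74 further genes of the table, of 105 listed. Over all cells 68 had at least 100 UMIs. Of these, 29 were at least 1.5-fold higher and 9 at least 1.5-fold lower in curly cells, against 6.22% and 16.9% of all genes tested. Their median log2 ratio was 0.35, against -0.18 for all genes. The list holds targets picked as interferon genes with earlier results known, so this is a description. The ratios of wider genes below are over all cells unless a cluster is named, and the cell mix differed between the libraries. DPC-like cells gave 8.44% of straight and 1.49% of curly UMIs, and IRS-like cells 3.39% and 9.71%. The part of cell mix in the ratios over all cells was not tested.

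Of the listed interferon genes themselves only IFNK, the keratinocyte interferon, could be followed here, with 3 UMIs in straight and 0 in curly cells. Over all cells, none of the 6 receptor genes was at least 1.5-fold higher in curly skin and 2 were lower (6.22% and 16.9% of all genes). For so few genes, a count of none higher is near that share. IFNGR2, at 50.6 CPM in straight skin against 54.4 CPM in curly skin, had a log2 ratio of 0.10, and IFNGR1 one of -0.25. IFNAR2, part of the type I receptor, was lower at a log2 ratio of -1.16, as was IL10RB at -0.91, and IFNAR1 was at -0.47. Some clusters differed. Among receptor genes with enough UMIs to be counted, 2 of 2 were at least 1.5-fold higher in TPSB2-rich immune-like cells (9.81% of all genes). In endothelial-like and in LGR5-rich HFSC-like cells 1 of 2 was higher (10.9% and 4.74% of all genes). In suprabasal IFE-like and in DPC-like cells 1 of 2 was lower and none higher (9.19% and 8.62% of all genes higher). In matrix-like, hair shaft-like and IRS-like cells none was higher or lower (4.18%, 6.87% and 3.75% of all genes higher). Counts of all genes that were lower in each cluster are given below. Nothing is read from counts of so few genes.

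Downstream of the receptors, IRF9 was higher at a log2 ratio of 0.91. The kinase JAK1 was at -0.58, and STAT3, a factor shared with many cytokines, was lower at -0.87. Of the interferon regulatory factors, IRF7, which amplifies type I interferon, was higher at 0.83 (0.74 to 0.93). IRF1 was lower at -1.46 and IRF8 at -1.18, while IRF2 was at -0.50 and IRF3 at -0.22.

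Of the 9 sensors with at least 100 UMIs, 5 were higher (6.22% of all genes). DDX58, which encodes the RNA sensor RIG-I, was at a log2 ratio of 2.09, EIF2AK2, the kinase PKR, at 1.83, DHX58 at 1.44, IFIH1 at 0.70 and CGAS at 1.18. ADAR was at 0.36.

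Among 20 effectors, 14 were higher and 1 lower (6.22% and 16.9% of all genes). The largest log2 ratio was that of EPSTI1, at 4.54 (4.13 to 4.99), from 0.83 to 19.3 CPM. IFIT1 followed at 3.84, XAF1 at 3.36, BST-2B at 3.25, RTP4 at 2.66 and CMPK2 at 2.53. IFITM3, a membrane protein that blocks virus entry, was the most abundant effector, at 216 CPM in straight skin against 592 CPM in curly skin, a log2 ratio of 1.45. SP110 was at 1.27 and PARP9 at 1.07, and the abundant IFI35 and LGALS3BP were at 0.72 and 0.79, with NMI at -0.20. SAMHD1, which depletes nucleotides in infected cells, was the lower gene, at -1.60.

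Of 5 genes that join ISG15 to proteins or remove it, 3 were higher (6.22% of all genes). HERC6, a ligase, was at a log2 ratio of 3.63 (2.96 to 4.38) and HERC5 at 0.61. USP18, which removes ISG15 and also restrains the type I receptor, was at 2.09 (1.90 to 2.29), and UBE2L6 was at 0.44. Of the 3 negative regulators SOCS1, SOCS3 and PIAS1, none was higher over all cells, and SOCS3 was lower at -0.85 (6.22% and 16.9% of all genes). Among those with enough UMIs to be counted, 1 of 1 was higher in endothelial-like cells (10.9% of all genes). In suprabasal IFE-like cells 1 of 3 was higher and 2 were lower (9.19% of all genes higher). In matrix-like, hair shaft-like, IRS-like and DPC-like cells none was higher and at least 1 was lower. The shares of all genes higher there were 4.18%, 6.87%, 3.75% and 8.62%. Nothing is read from these small counts.

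Over all cells, antigen presentation genes and interferon gamma targets lay on both sides. B2M, the light chain of MHC class I, was at 439 CPM in straight skin against 753 CPM in curly skin, a log2 ratio of 0.78, and the proteasome subunit PSMB10 was at 0.67. CD74, the chain that accompanies MHC class II, was at -0.62 and the peptide transporter TAP2 at 0.19. Of the chemokines, CXCL10 was at 2.66 (2.14 to 3.23), CXCL9 at -0.47 and CXCL11 at -3.23 (-4.19 to -2.38), so that genes of one family lay on opposite sides. WARS was at 0.03. Single clusters differed from this. In endothelial-like cells CXCL9 had 1 straight and 252 curly UMIs, a log2 ratio of 8.57. CXCL10 and WARS, at 2.93 and 1.21, were higher there too, as were 10.9% of all genes. In matrix-like cells 1 of 2 gamma targets with 100 UMIs was lower and none higher, with a median log2 ratio of -4.08. There 590 of 9009 genes with 100 UMIs were lower. In suprabasal IFE-like cells 5 of 6 antigen presentation genes with 100 UMIs were higher (9.19% of all genes), among them B2M at 2.00.

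**Figure D5:**
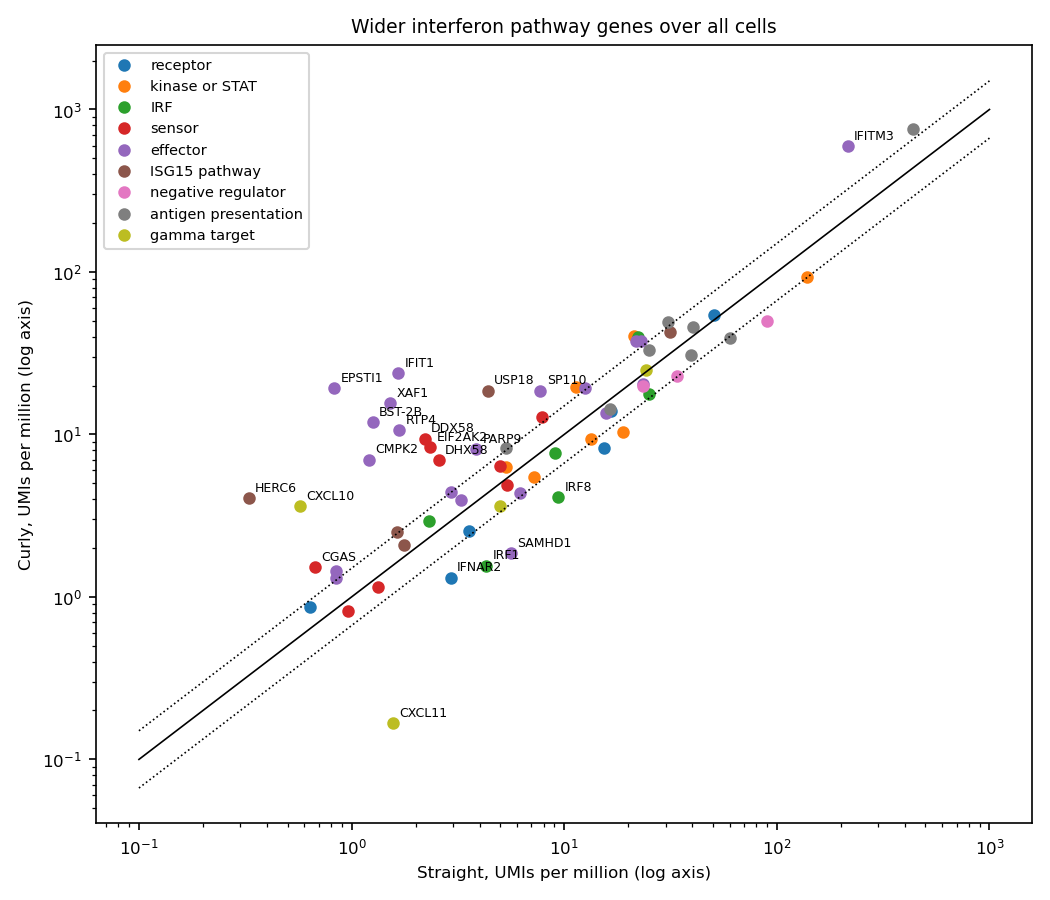
Straight against curly levels in CPM over all cells, on log axes, for 68 wider interferon pathway genes with at least 100 UMIs, coloured by role. The solid line marks equal levels and the dotted lines 1.5-fold, and 29 genes lie on or above the upper and 9 on or below the lower dotted line.

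By cell type the counts of wider genes differed. In the LGR5-rich HFSC-like cells 15 of 21 wider genes with 100 UMIs were at least 1.5-fold higher and 1 lower, where 4.74% of all genes were higher. In suprabasal IFE-like cells 21 of 33 were higher and 6 lower (9.19% of all genes higher), and in endothelial-like cells 18 of 29 were higher and 1 lower (10.9%). In matrix-like cells 6 of 34 were higher and 5 lower (4.18%), in hair shaft-like cells 2 of 12 higher and 2 lower (6.87%), and in IRS-like cells 3 of 10 higher and 1 lower (3.75%). DPC-like cells had 10 of 22 higher and 3 lower (8.62%), and TPSB2-rich immune-like cells 3 of 7 higher and 1 lower (9.81%). Of all genes with 100 UMIs, 562 of 3569 were at least 1.5-fold lower in LGR5-rich HFSC-like and 903 of 6389 in suprabasal IFE-like cells. This held for 206 of 2448 in endothelial-like, 590 of 9009 in matrix-like, 479 of 6055 in hair shaft-like and 870 of 5305 in IRS-like cells. In DPC-like and TPSB2-rich immune-like cells it held for 1026 of 4790 and 200 of 1397. The number of genes with 100 UMIs depends on how many UMIs each cluster had.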

How the data were processed

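Single-cell RNA-seq was analysed in 2 libraries, straight and curly, each a pool of lambs. Cell Ranger (3.0.2 in the submitters' processing notes) was run by the authors against Oar_rambouillet_v1.0. They deposited 1 table in natural log units, each value taken after every cell had been scaled to 10000 UMIs and 1 added. It holds fewer cells than the study counted. UMI counts were calculated back from the natural log values. All 28552149 values above 0 were whole numbers within 0.01, with a largest deviation of 0.0038. No further filter on cells was applied, and no column was left without a sample.

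The libraries were integrated in Seurat 5.3.0 (R 4.3.3) by anchors on 2000 variable genes, from which 23 interferon genes were left out, and 30 dimensions, and clustered at resolution 0.4. A cluster was named where the mean log2 ratio of the markers of a type (5 CPM added) was at least 1.5, at least 3 markers were found in at least 10% of its cells, and at least 1 was among its 30 leading genes. Scrublet in scanpy 1.11.5 marked 60 cells (0.427%) as doublets and was not relied on, so that doublets were kept, and leaving out the 6% of cells with the highest scores was an alternative.

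Summed UMIs of each cluster and library were turned into CPM, with exact Poisson intervals. Shares have exact Clopper-Pearson intervals, and log2 ratios the exact interval of the binomial split. Genes were counted as higher or lower at 1.5-fold with at least 100 UMIs, with 0.5 UMI added where a sum was 0. Ratios were given for clusters of at least 25 cells in each library. A count of 0 allows up to 3 counts, which is 0.0518 CPM over the straight and 0.0386 CPM over the curly library. The ratio and thinning steps were tested on simulated data. Names were looked up for 5 genes listed only by LOC number, among them CGAS, IFITM3 and USP18, in RefSeq for ARS-UI_Ramb_v3.0, and no position was used.

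The 10 genes, the wider list and the markers were chosen with earlier results of these data known. Named genes are the 10, the wider genes with the most UMIs of each role (at most 4) or a ratio of at least 2-fold, and the 10 most alike by each measure, and 1 gene that the rule names is not reported here. Intervals were computed with scipy 1.17.1 in Python 3.11.15, and plots drawn with matplotlib 3.10.9.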

Additional observations from a re-analysis of the deposited data

How the results depend on the processing

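With 1 pooled library per wool type, no replicate could be left out. No paired analysis was possible, because the libraries are pools of different lambs without pairing, and no result comes from a test. The counts of clusters with at least 1000 CPM of IFI6, of combinations of a gene and a cluster, of correlated gene pairs, of wider genes among the most alike and of wider genes beyond 1.5-fold stayed within 1.5 times their value in all 47 recalculations. These used resolution 0.8, cells without the highest Scrublet scores, cells with at least 1000 genes, interferon genes among the variable genes, mean per-cell CPM, centred ratios, other UMI minimums, other thinning and another pseudocount, and, chosen after seeing the data, cells without shared barcodes. Of the recalculated single values, 52 stayed within the interval of the reported value, 9 left it and none changed direction. The share of curly cells with ISG15 among those with MX1 was 66.7% at 4000 UMIs per cell and 73.8% without thinning. The log2 ratio of IFI44 over all cells ranged from 0.91 to 2.14, the lower value from mean per-cell CPM, and that of IFI6 from 5.79 to 5.99. Depth limits RSAD2, IFI44, IFI44L and, in straight skin, BST-2A and MX2, which have few UMIs in any cell type.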
